A study of Homo sapiens with 9 samples.

Results

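U2AF1 knockdown was compared with a control shRNA by the positions and strength of RNA polymerase II on chromatin in HEK293T cells, an established line derived from human embryonic kidney. Chromatin immunoprecipitation and sequencing (ChIP-seq) used an antibody against POLR2A, the largest subunit of the polymerase. The control cells carried a control shRNA and are labelled wildtype; the knockdown cells are labelled by the reduced gene, with no time, clone or residual U2AF1 level stated. The labels list, for each condition, 2 replicates of the ChIP and 1 input, the chromatin before the antibody step. The series also holds a DHX9 knockdown, and its 9 samples gave 3 peak lists.

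A peak of the control list and a peak of the knockdown list were taken as a pair when they shared at least 1 bp and neither overlapped a second peak of the other list. This gave 934 pairs, which hold 33.9% of the 2757 control peaks (95% Wilson interval 32.1 to 35.7) and 54.0% of the 1730 knockdown peaks (51.6 to 56.3). The 3 lists of the series hold 8930 peaks in all. With 1 list for each condition there is no replicate error, and no difference was tested against a spread between replicates. Which of the ChIP replicates each list rests on is not known. Intervals cover counting error only. The comparison asks where polymerase changed its rank, extent or position on chromatin when U2AF1 was reduced.

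U2AF1 is the small subunit of the U2 auxiliary factor and contacts the AG dinucleotide at the 3′ splice site, where it helps to recruit the U2 small nuclear ribonucleoprotein. RNA polymerase II commonly pauses shortly downstream of a start site before it elongates, so ChIP-seq of POLR2A gives its highest peaks there. R-loops, in which nascent RNA pairs with the template DNA and displaces the other strand, form at many GC-rich promoters. Most genes of spliceosomal RNAs are themselves transcribed by RNA polymerase II. They are short and without introns, and they are driven by a proximal sequence element that binds the SNAPc complex.

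Reads were lower under knockdown at most of those spliceosomal RNA genes, so the 80 bases before the annotated start are shown for 6 of them, read from GRCh38. The names give the RNA: U2 contacts the branch site, U1 the 5′ splice site, U5 the exon ends, U11 belongs to the minor spliceosome, and U7 serves histone pre-mRNA processing. Capitals mark the letters ACCNT, found in the part of the window where the proximal sequence element usually lies.

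RNU2-2P (chr11:62841810-62841889, minus strand): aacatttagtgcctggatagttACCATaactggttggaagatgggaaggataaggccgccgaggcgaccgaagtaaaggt

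RNU1-28P (chr14:34556390-34556469, minus strand): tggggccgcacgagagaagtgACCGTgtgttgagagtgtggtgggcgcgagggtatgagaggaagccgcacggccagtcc

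RNVU1-27 (chr1:148522521-148522600, plus strand): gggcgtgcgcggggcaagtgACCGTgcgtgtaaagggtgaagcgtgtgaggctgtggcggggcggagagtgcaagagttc

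RNU5B-1 (chr15:65304597-65304676, plus strand): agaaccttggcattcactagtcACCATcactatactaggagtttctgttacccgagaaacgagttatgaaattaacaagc

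RNU11 (chr1:28648520-28648599, plus strand): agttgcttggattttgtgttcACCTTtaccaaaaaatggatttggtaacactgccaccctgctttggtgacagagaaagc

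RNU7-1 (chr12:6943736-6943815, plus strand): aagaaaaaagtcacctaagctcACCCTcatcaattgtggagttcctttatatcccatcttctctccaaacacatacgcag

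The letters ACCNT were searched on both strands from 62 to 46 bases before the start. They stood in 34 of 42 paired spliceosomal RNA, U3 and U8 genes (81.0%), against 5.95% of 20045 protein-coding gene starts. On the coding strand alone, the one printed above, the shares were 73.8% and 2.98%. RNU12, RNU2-1, the variant U1 genes RNVU1-2, RNVU1-2A and RNVU1-34, and the U3 genes SNORD3A, SNORD3B-2 and SNORD3D had no match in this window. The search and its window were chosen after these genes were seen, and a match is only a description of the sequence.

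Fold enrichment in such lists is the pileup of ChIP reads at the summit over a local background taken from the input, each with 1 added. Together with the deposited p-value it fixes the number of reads at the summit and the local background. These were recovered for 99.96% of control peaks and 100% of knockdown peaks. The background expected genome-wide was 4.94 reads per position in the control list and 2.054 in the knockdown list, a ratio of 2.41. This ratio holds both depth and the length to which reads were extended. Reads are therefore compared as multiples of the genome background of their own list. A ratio of these multiples was called when its exact 95% interval for the counts left out 1.

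At the spliceosomal RNA genes (39 pairs) polymerase was lower under knockdown in nearly all places. The control summits held a median of 252 reads and the knockdown summits 76. Scaled by background, 37 pairs were lower and 2 higher, with a median log2 ratio of -0.58 and a range from -0.97 to 0.15. The interval lay below 1 in 29 pairs and above 1 in 0. Over all pairs with recovered reads in both lists, 933, it lay below 1 in 63 (6.75%) and above 1 in 46 (4.93%), and the median log2 ratio was 0.00.

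RNU1-28P, a U1 copy on chromosome 14 at 34554851 to 34556574, had 434 reads in the control list and 92 in the knockdown list, a ratio of 0.510 (0.403 to 0.640). RNVU1-27, a variant U1 gene, had 520 and 117 reads and a ratio of 0.542 (0.439 to 0.663), while its deposited fold enrichment was higher under knockdown, 17.65 and 23.18, over a local background of 5.71 and 1.99 times the genome background. RNU5B-1 had 343 and 78 reads, with a ratio of 0.547 (0.422 to 0.702). These 3 had the lowest ratios among the spliceosomal RNA genes.

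RNU2-2P, whose pair also covers the start of WDR74, had 532 and 133 reads, with a ratio of 0.602 (0.494 to 0.729). RNU11, beside the start of TAF12, had 437 and 102 reads and a ratio of 0.562 (0.448 to 0.698). RNU7-1, whose pair also covers the start of C12orf57, had 377 and 93 reads and a ratio of 0.594 (0.468 to 0.747). U1, U2, U5 and minor spliceosome genes thus all had members whose interval lay below 1.

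The U1 gene RNU1-3 had 239 and 89 reads, with a ratio of 0.896 (0.695 to 1.15), and RNVU1-31 had 102 and 42 reads and a ratio of 0.991 (0.675 to 1.43). A second peak of RNVU1-21 had the smallest number of reads in the list, 39 and 18, and a ratio of 1.11 (0.598 to 1.99). These members did not differ beyond counting error.

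The U3 and U8 small nucleolar RNA genes, which guide early ribosomal RNA processing and are likewise transcribed by RNA polymerase II, gave 4 pairs. All 4 were lower, with the interval below 1. SNORD3A, a U3 gene on chromosome 17, had 650 and 198 reads and a ratio of 0.733 (0.622 to 0.861). SNORD118, the U8 gene, had 297 and 85 reads and a ratio of 0.689 (0.535 to 0.879). SNORD3B-2 had 733 and 246 reads, and its ratio of 0.808 (0.696 to 0.935) was the nearest to 1 of the 4. Copies of the U1, U2, U3 and U5 genes are nearly identical, so which copy the reads came from is uncertain, and the pairs are not independent of each other.

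These genes hold many reads, which narrows their intervals, so they were set beside other strong pairs. Of the 42 pairs of these RNA genes with 100 or more control reads, 33 were lower and 0 higher, with a median log2 ratio of -0.56. Of the 41 other pairs with 100 or more control reads at a start of a protein-coding gene, 7 were lower and 1 higher, with a median of -0.27. The 2 sets share only this lower limit and were not of equal strength. Their median fold enrichment in the control list was 18.6 at the RNA genes and 8.67 at the others. The ratio itself was lower at strong pairs: its median log2 was 0.22 below 40 control reads and -0.16 at 100 or more. A pair enters only if both lists called a peak, and the part of this selection in that trend was not tested. The log2 ratio of local background had a median of -0.23 at the 43 pairs of these RNA genes and of -0.30 over all pairs.

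**Figure D1:**
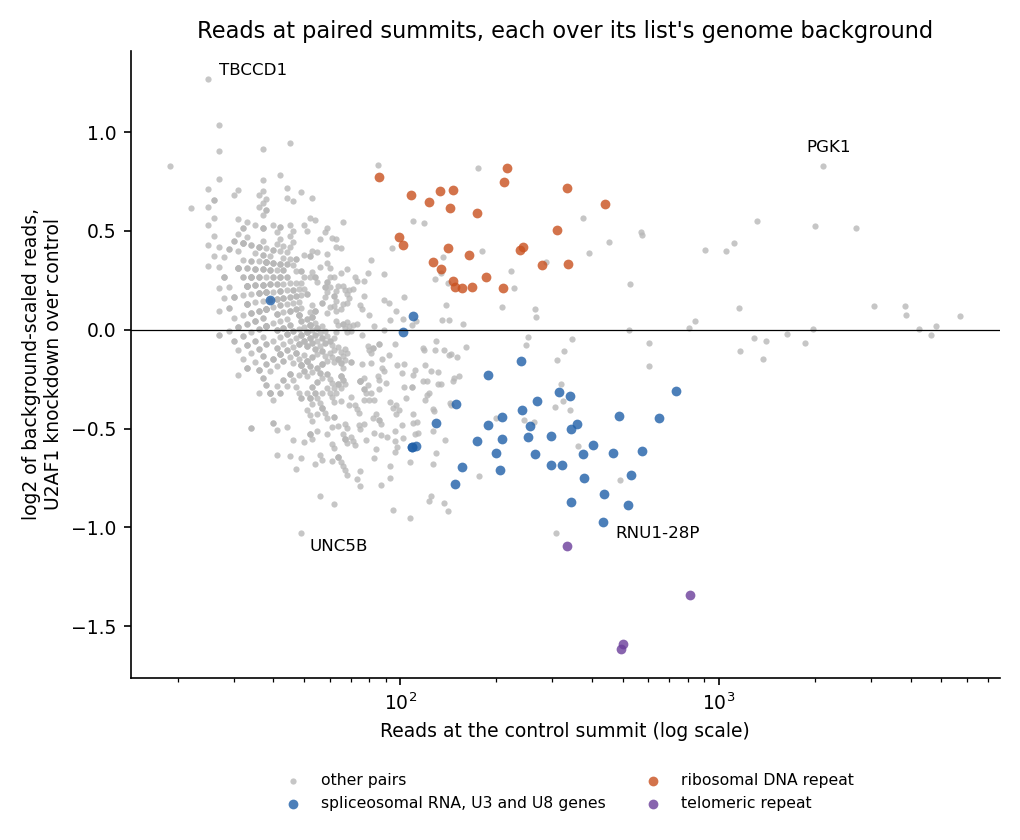
Each point is a pair, placed by the reads at its control summit (log axis) and by the log2 ratio of reads over genome background, knockdown over control. Of the 43 pairs at spliceosomal RNA, U3 and U8 genes 2 lie above 0, the 28 ribosomal DNA pairs all lie above 0, and the 4 telomeric pairs lie from -1.62 to -1.09.

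By rank within each list most of these RNA genes stood at the top of both lists, where a percentile has little room to move: RNU5B-1 went from rank 20 to rank 117 with a shift of -6.03 points. No pair among the 39 spliceosomal RNA pairs shifted by 25 percentile points or more. Their median shift was -1.99 points, with a range from -17.7 to 0.98. The 5 pairs at starts with the highest mean percentile were the processed pseudogene ENSG00000259397, PGK1, SNORD3B-2, RNU1-27P and the pair shared by WDR74 and RNU2-2P, each among the first 6 of both lists.

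PGK1, which encodes the glycolytic enzyme phosphoglycerate kinase and whose promoter is also widely used in expression vectors, went the other way in reads. Its peak on chromosome X at 78103797 to 78104351 had 2118 reads in the control list and 1561 in the knockdown list. The ratio was 1.77 (1.66 to 1.90), and its fold enrichment was 42.3 and 111.9. The pseudogene ENSG00000259397 on chromosome 15 had 1317 and 802 reads and a ratio of 1.47 (1.34 to 1.601). Both were higher under knockdown by reads, at ranks within the first 4 of each list. The labels do not name the shRNA vector, and whether vector copies of the PGK1 promoter add reads to this peak was not tested.

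Over all pairs, ranks by fold enrichment were similar between the lists but far from fixed. Spearman's rho was 0.64 across the 934 pairs, which are places in the same libraries and not replicates. The median shift was -0.46 points (-1.12 to 0.07), and the median size of a shift without its sign was 13.45 points. Under knockdown 126 pairs ranked at least 25 points higher (13.5%) and 139 at least 25 points lower (14.9%). That balance depended on the order used: it was 91 higher and 198 lower by −log10 p, 19 and 149 by recovered reads, and 161 and 87 with lists of equal length. Reads at the summit followed each other more closely, with a rho of 0.85. The log2 ratio of reads had an SD of 0.38 over pairs, against 0.36 from counting error alone, so most single pairs cannot be told from no difference at this depth.

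**Figure D2:**
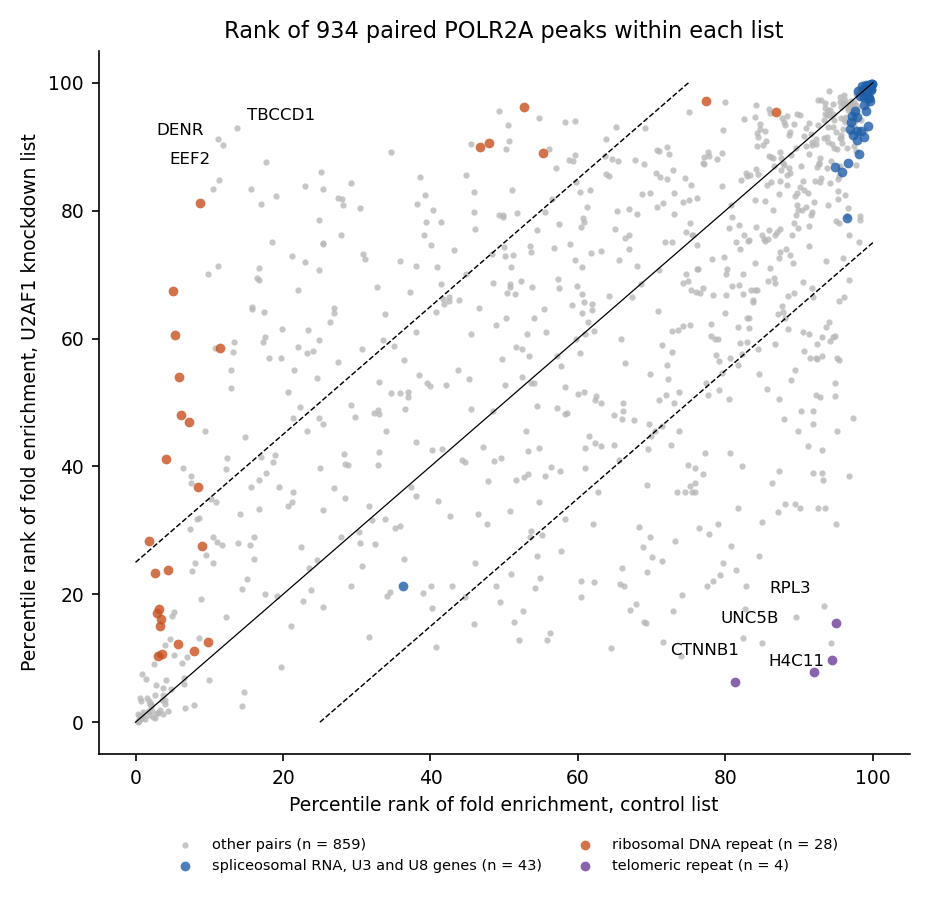
Each point is a pair, placed by the percentile rank of its fold enrichment in the control list (horizontal) and in the U2AF1 knockdown list (vertical). Dashed lines mark shifts of 25 points, beyond which 126 pairs lie above and 139 below.

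Fold enrichment is reads over local background, so a shift in its rank holds both parts by construction, and the values here only describe how they combined. Shift and log2 ratio of reads had a rho of 0.56 across pairs, and shift and log2 ratio of local background a rho of -0.59. In all 126 pairs that ranked higher the local background was lower under knockdown, from a median of 2.34 times the genome background in the control list to 1.40 times. The interval of the read ratio lay above 1 in 15 of them. Among the 139 pairs that ranked lower, the background was lower in 73 and higher in 66, and the read interval lay below 1 in 10. Over all pairs the local background was lower under knockdown in 743 and higher in 190. The background was taken from the input, with 1 input for each condition, and was given no interval.

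**Figure D3:**
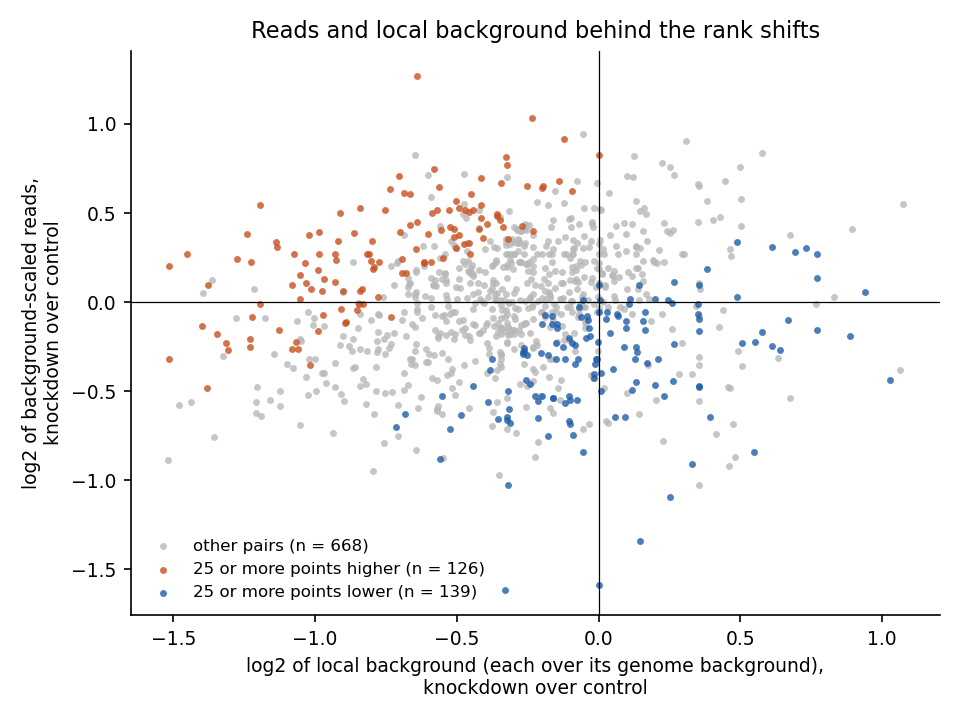
Each point is a pair, placed by the log2 ratio of local background (horizontal) and of reads (vertical), knockdown over control, each over the genome background of its list. The 126 pairs that ranked 25 or more points higher lie left of 0, and of the 139 that ranked lower 121 lie below 0 in reads.

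The 10 largest upward shifts in rank at starts were at DENR, TBCCD1, EEF2, SNX5, DUSP28, UQCRC1, PPA1, MTCH1, ARHGAP4 and H3C10. DENR, a factor for translation reinitiation, stood at the 11.2 percentile in the control list and at the 91.2 percentile under knockdown, and its fold enrichment was 2.76 and 7.88. It had 66 reads in the control list and 40 in the knockdown list, a ratio of 1.46 (0.96 to 2.19). Its local background was 4.675 times the genome background in the control list and 2.045 times in the knockdown list. The reads at DENR did not differ beyond counting error, and with peaks ordered by reads its shift was -1.81 points.

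EEF2, the elongation factor that moves the ribosome along mRNA, stood at the 11.9 and the 90.3 percentile. It had 67 and 32 reads, a ratio of 1.15 (0.730 to 1.78), and a local background of 4.675 and 1.64 times the genome background. UQCRC1, a subunit of respiratory complex III, ranked 69.96 points higher with 51 and 30 reads and a ratio of 1.42 (0.871 to 2.27). H3C10, a replication-dependent histone H3 gene, ranked 60.9 points higher with 60 and 29 reads and a ratio of 1.16 (0.720 to 1.84). None of these 3 differed in reads beyond counting error, and ordered by reads the shifts at EEF2, UQCRC1 and H3C10 were -6.39, 4.71 and -5.51 points.

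TBCCD1, a protein of centrosome and Golgi positioning, stood apart among these 10. Its peak on chromosome 3 at 186567224 to 186567497 also lies at the start of DNAJB11, a chaperone of the endoplasmic reticulum, and the reads cannot be divided between them. It had 25 reads in each list, a ratio of 2.41 (1.33 to 4.37), and went from the 13.8 to the 92.9 percentile. Its local background was 1.56 and 1.00 times the genome background. It was the only one of these 10 whose read interval left out 1, and its ratio was the highest of all pairs. Its control peak was weak, with a −log10 q of 1.85 where the lowest of the list was 1.31. The median control summit of the pairs held 53 reads. TBCCD1 was also named for its rank shift, which holds the same reads.

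The 10 largest downward shifts in rank at starts were at H4C11, RPL3, UNC5B, CTNNB1, TMEM170A, PABPC1, SHCBP1, TAF5L, INTS6 and DDX5. H4C11, a replication-dependent histone H4 gene, stood at the 94.3 and the 12.4 percentile. It had 62 and 19 reads, a ratio of 0.738 (0.416 to 1.25), and a local background of 1.30 and 2.66 times the genome background. RPL3, a protein of the large ribosomal subunit, stood at the 93.3 and the 18.2 percentile with 88 and 32 reads and a ratio of 0.875 (0.565 to 1.32). CTNNB1, which encodes beta-catenin, ranked lower, with a shift of -72.5 points, with 51 and 19 reads and a ratio of 0.897 (0.500 to 1.54). Each of these 3 shifts came with a higher local background and with reads that did not differ beyond counting error. The background has no interval here, so its own counting error is not known. Its knockdown value was the same, 2.656 times the genome background, at H4C11 and CTNNB1. Ordered by reads, the shifts at RPL3 and CTNNB1 were -11.5 and -24.5 points.

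UNC5B, a netrin receptor, was the only one of these 10 whose read interval left out 1. Its peak on chromosome 10 at 71212455 to 71212767 had 49 reads in the control list and 10 in the knockdown list, a ratio of 0.491 (0.222 to 0.982). The knockdown peak lay at the floor of its list, where the lowest values were 10 reads and a −log10 q of 1.304. UNC5B was also named for its rank shift, which holds the same reads. It stood at the 89.5 and the 16.45 percentile, with a local background of 1.33 and 1.06 times the genome background. DDX5, an RNA helicase linked to R-loops and splicing, had a shift of -59.1 points, with 67 and 26 reads and a ratio of 0.934 (0.570 to 1.49). INTS6, a subunit of the Integrator complex that cleaves spliceosomal RNA precursors, stood at the 93.5 and the 33.5 percentile with a ratio of 0.719 (0.445 to 1.13). Ordered by reads, the shifts at DDX5 and INTS6 were -14.3 and -19.25 points.

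EEF2 and RPL3, at opposite ends of the rank shifts, share a type of start common to genes of the translation machinery. The 60 bases before and 20 after their RefSeq starts (GRCh38.p14) are shown, with the first 20 transcribed bases in capitals, and both transcripts open with C in a pyrimidine-rich run.

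EEF2 (chr19:3985444-3985523, minus strand): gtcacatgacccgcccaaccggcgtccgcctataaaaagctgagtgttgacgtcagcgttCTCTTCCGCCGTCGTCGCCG

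RPL3 (chr22:39319604-39319683, minus strand): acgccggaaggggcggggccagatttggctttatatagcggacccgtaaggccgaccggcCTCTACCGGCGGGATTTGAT

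Genes of the splicing machinery were looked at as lists. The proteins of the 3′ splice site and the U2 particle gave 2 pairs, RBM39 with 60 and 31 reads and a shift of 12.8 points, and PUF60 with 39 and 13 reads and a shift of -44.3. Neither differed in reads beyond counting error. U2AF1 itself had 1 pair, away from its start and over an exon on chromosome 21 at 43094477 to 43094787. It had 51 and 17 reads, a ratio of 0.802 (0.434 to 1.41), and stood at the 91.4 and the 74.5 percentile. At its start U2AF1 had no control peak and 1 knockdown peak, at 43107476 to 43107691, with 12 reads at the 35.95 percentile. U2AF1 has a close copy on the same chromosome, so its reads are uncertain. These lists record polymerase and do not measure how far U2AF1 was reduced.

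The SR proteins and hnRNPs, which bind exons and introns and set splice site choice, gave 10 pairs. Their median log2 ratio was -0.25, 2 of 10 were higher and 0 left the counting error. Their control summits held a median of 71 reads, and all pairs with 60 to under 100 control reads had a median log2 ratio of -0.19. SRSF2 had 131 and 45 reads and a ratio of 0.827 (0.576 to 1.17), and HNRNPH1 102 and 29 reads and a ratio of 0.684 (0.437 to 1.04). The rank shift was -46.02 points at SYNCRIP and -39.2 at SRSF1. Of the 10, 2 ranked at least 25 points lower and 0 higher, against 14.9% and 13.5% over all pairs. With 10 pairs these counts are a description only.

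Among R-loop factors 3 had pairs. XRN2, the exonuclease of transcription termination, ranked 53.0 points higher with 34 and 17 reads and a ratio of 1.20 (0.631 to 2.21). DHX9, a helicase that unwinds R-loops, ranked 18.2 points higher with 31 and 21 reads and a ratio of 1.63 (0.890 to 2.93). DDX5 ranked lower, as given above. The 3 did not share a direction, and none differed in reads beyond counting error.

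Pausing and elongation factors gave 7 pairs, of which 2 ranked at least 25 points higher and 2 lower, against 13.5% and 14.9% over all pairs. With 7 pairs these counts are a description only. CDK12 and CDK13, kinases of the polymerase's C-terminal domain, ranked 39.7 and 42.2 points higher. NELFB, a subunit of the negative elongation factor, and MEPCE, the capping enzyme of 7SK RNA, had shifts of -39.5 and -35.2 points. The interval of the read ratio held 1 in all 7. Among polymerase subunits, POLR2A had 177 and 44 reads and a ratio of 0.598 (0.420 to 0.837), while POLR2L, POLR2C and POLR2J3 had ratios of 1.03, 1.496 and 0.942 with intervals that held 1. POLR2J3 has close copies, so its reads are uncertain.

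Cytosolic ribosomal protein genes gave 18 pairs, with 4 ratios above 1, a median log2 ratio of -0.18 and 0 beyond counting error in either direction. RPL3, RPL15 and RPS6 ranked at least 25 points lower and RPL10 higher, 3 and 1 of 18, against 14.9% and 13.5% over all pairs. RPL12 had 144 and 46 reads and a ratio of 0.769 (0.539 to 1.08). snoRNA host genes gave 15 pairs with a median log2 ratio of -0.26. Of these ZFAS1, which shares its start region with ZNFX1, was lower, with 95 and 21 reads and a ratio of 0.532 (0.315 to 0.860) and a rank shift of -58.2 points. Median control reads were 75.5 at the ribosomal protein pairs and 91 at the host gene pairs. Over all pairs with 60 to under 100 control reads the median log2 ratio was -0.19.

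Translation factors gave 8 pairs, of which EEF2, EIF4G2, EIF1 and EIF4E2 ranked at least 25 points higher and PABPC1 and EEF1A1 lower, against 13.5% and 14.9% over all pairs. Their median shift of 22.4 points was 1.58 ordered by −log10 p and -9.01 ordered by reads. EEF1A1, the factor that brings aminoacyl-tRNA to the ribosome, had 93 and 24 reads and a ratio of 0.621 (0.379 to 0.981). Replication-dependent histone genes gave 15 pairs, with 2 ranked higher and 3 lower, against the same 13.5% and 14.9%, and a median log2 ratio of -0.16. H1-2, a linker histone, had 130 and 35 reads and a ratio of 0.648 (0.433 to 0.948). Immediate early genes gave 12 pairs with a median log2 ratio of -0.05 and 0 beyond counting error, and a second JUND peak had a shift of -49.4 points with 34 and 10 reads.

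**Figure D4:**
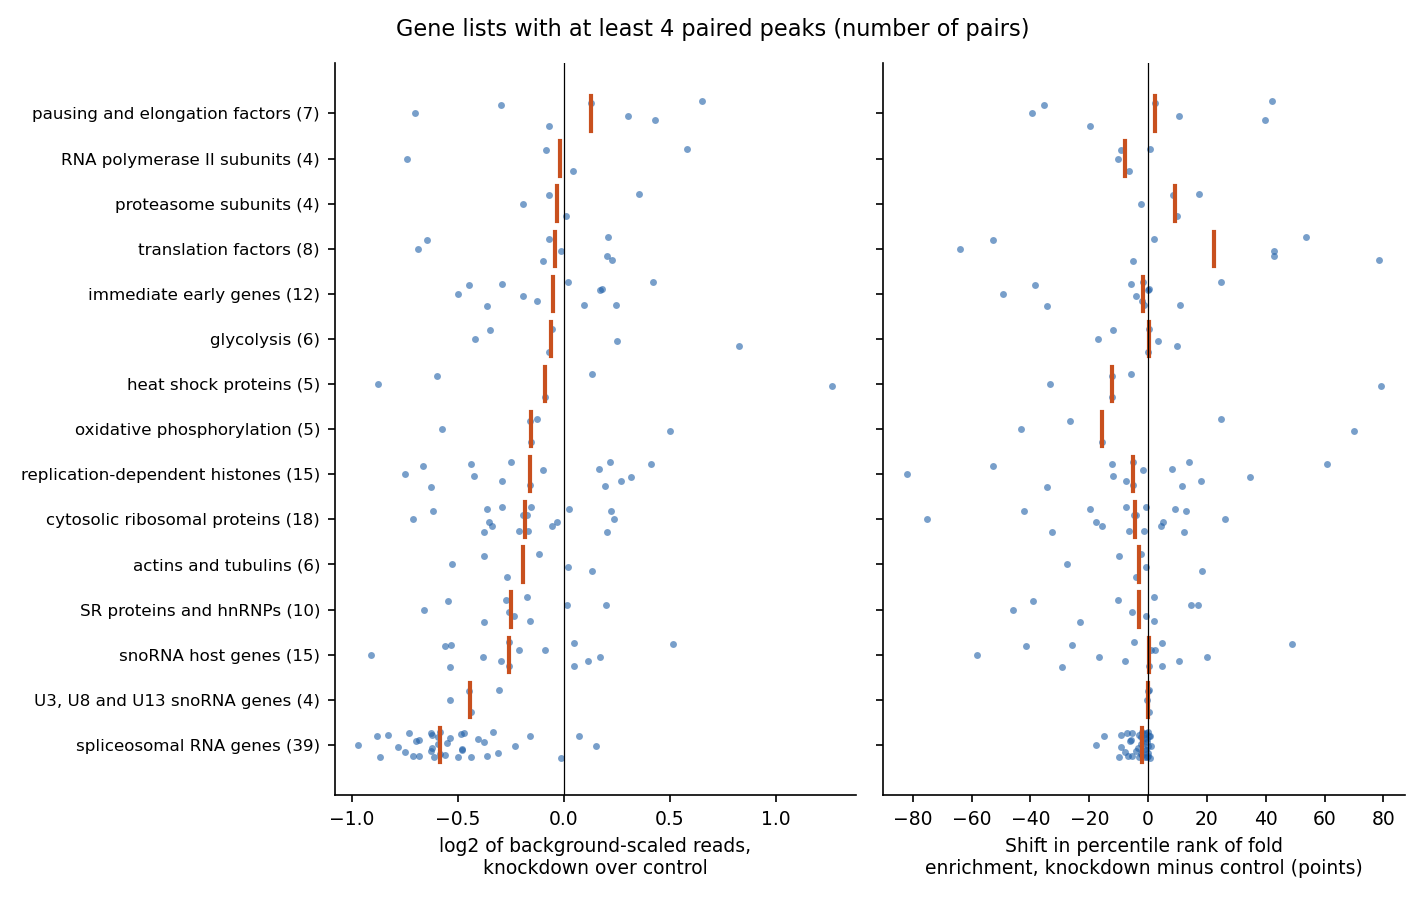
Each point is a pair of a gene list, by log2 ratio of reads over genome background (left) and by shift in percentile rank (right), knockdown over control, with the median as a bar. The spliceosomal RNA genes have the lowest median in reads, -0.58, and a median rank shift of -1.99 points.

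Smaller lists are given by count. Proteasome subunits (4 pairs), glycolysis (6), oxidative phosphorylation (5), mitochondrial ribosomal proteins (2), actins and tubulins (6), and core snRNP proteins (1) had 1 pair beyond counting error among them, PGK1. Of the heat shock list (5 pairs), DNAJB4 was lower with 137 and 31 reads and a ratio of 0.545 (0.356 to 0.809), and DNAJB11 shares the TBCCD1 pair. HSP90AA1, a cytosolic chaperone, had a shift of -33.3 points with 62 and 17 reads. MALAT1, an abundant nuclear RNA, had 103 and 35 reads. The chromosome 19 zinc finger genes gave 0 pairs.

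The read intervals of the members named next, which had the highest or lowest shift of their list, all held 1. In the mitochondrial lists, MRPL57 ranked 52.6 points higher and MRPS5 had a shift of -22.6, and CYCS, which encodes cytochrome c, had a shift of -43.3. In glycolysis, GAPDH ranked 9.84 points higher and LDHA had a shift of -17.15. The tubulin genes TUBB2A and TUBA1B, which have close copies, had shifts of 18.45 and -27.5 points. PSME4 and PSMG3, of the proteasome list, had shifts of 17.2 and -2.42 points, and the snRNP gene TXNL4A one of -24.9. SNHG15, a snoRNA host, ranked 48.9 points higher, GADD45A, a stress gene of the immediate early list, 24.9 points higher, and RPPH1, the RNA of RNase P made by RNA polymerase III, had a shift of -44.9 points.

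Beyond the RNA genes, the pairs at protein-coding starts were balanced. Of all 722 pairs at these starts, 373 had a ratio above 1, the median log2 ratio was 0.01, and the interval lay above 1 in 9 and below 1 in 14. The higher ones included GALNT11, with 27 and 21 reads and a ratio of 1.87 (1.006 to 3.44). IGF2R, the receptor that carries lysosomal enzymes, had 45 and 36 reads and a ratio of 1.93 (1.21 to 3.05). ODC1, the rate-limiting enzyme of polyamine synthesis, had 42 and 30 reads and a ratio of 1.72 (1.04 to 2.81).

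The lower ones included ADAMTS1, a secreted protease, with 107 and 23 reads and a ratio of 0.517 (0.315 to 0.818). JPT1 had 125 and 29 reads and a ratio of 0.558 (0.359 to 0.842). The shares called at protein-coding starts, 1.25% higher and 1.94% lower, were below those over all pairs. Among 722 pairs some 95% intervals leave out 1 by counting error alone. The genes named here as higher or lower are therefore a description, and no single one is established.

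Peaks were narrower under knockdown. The median width was 389.5 bp in the control list and 316 bp in the knockdown list over the same pairs, and the median difference was -59 bp (-66 to -48). Of the 934 pairs 263 were wider under knockdown (28.2%, 25.4 to 31.1) and 667 narrower. The shortest peaks of the pairs were 218 and 205 bp. The difference was -33 bp in pairs with under 40 control reads and -75 bp in those with 60 to under 100, so it did not rest on the weakest pairs. The genome background, which holds depth and read extension together, differed between the lists. The length to which reads were extended, which sets the shortest width a peak can have, is not given in the sources used here. The part of depth or of extension in the widths was not tested.

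The largest narrowings lay at clustered histone genes, where long control peaks faced short knockdown peaks. At H2BC11 and H2AC11 on chromosome 6 the width was 2230 and 260 bp, at H2AC20 on chromosome 1 2228 and 281 bp, and at H3C13 2338 and 666 bp. At spliceosomal RNA, U3 and U8 genes the median width was 1115 and 927 bp, and 5 of 43 pairs were wider. The 3 pairs that widened most were 2 in the ribosomal DNA, ENSG00000275664 with 677 and 1757 bp and 5_8S_rRNA with 414 and 1027 bp, and TRPC1, a cation channel gene, with 254 and 615 bp.

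Summits lay just inside the transcript in both lists. In 820 pairs (87.8%, 85.5 to 89.7) both summits lay within 1000 bp of the GENCODE start nearest to the control summit. The median summit was 38 bp downstream of the start (34 to 41) in the control list and 46 bp (41 to 51) in the knockdown list. The paired difference had a median of 3 bp downstream (0 to 7), with 435 summits farther downstream and 373 farther upstream under knockdown, 53.8% of those that differed (50.4 to 57.2). Measured from the start nearest to the knockdown summit, the median was 7 bp and the share 57.1%.

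The spread of positions around these starts was wider under knockdown. The start used was the one nearest to the control summit, a rule that by itself places control summits closer. Knockdown summits also held fewer reads, with a median of 22 against 53. The part of either in this spread was not tested. The first 100 bp of the transcript held 504 of the 820 control summits (61.5%, 58.1 to 64.7) and 423 knockdown summits (51.6%, 48.2 to 55.0). Summits of a pair were over 100 bp apart in 20.3% of the 934 pairs (17.9 to 23.04), with a median distance of 32 bp. That distance was 70 bp in pairs with under 40 control reads, 33 bp in those with 40 to under 60, 16 bp in those with 60 to under 100 and 22.5 bp in those with 100 or more.

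At the 43 spliceosomal RNA, U3 and U8 pairs the summit lay farther from the start used. The median was 226 bp in the control list and 290 bp in the knockdown list. The summit was farther downstream under knockdown in 29 pairs and upstream in 14. In several of these pairs the start nearest to the control summit was that of another gene, as at RNU11, RNU7-1 and RNVU1-2. Distance and direction there do not refer to the RNA gene's own start. At RNU1-28P it lay at 212 and 302 bp and at RNU1-27P at 174 and 283 bp, while at RNU5B-1 it lay at 250 and 214 bp. Among protein-coding starts the largest downstream moves were at SRCAP, 675 bp, DUSP28, 609 bp, and NDUFV3, 574 bp. The largest upstream moves were at H2BC11, ENSG00000275664 in the ribosomal DNA, and ENSG00000291338, from -1048 to -861 bp.

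**Figure D5:**
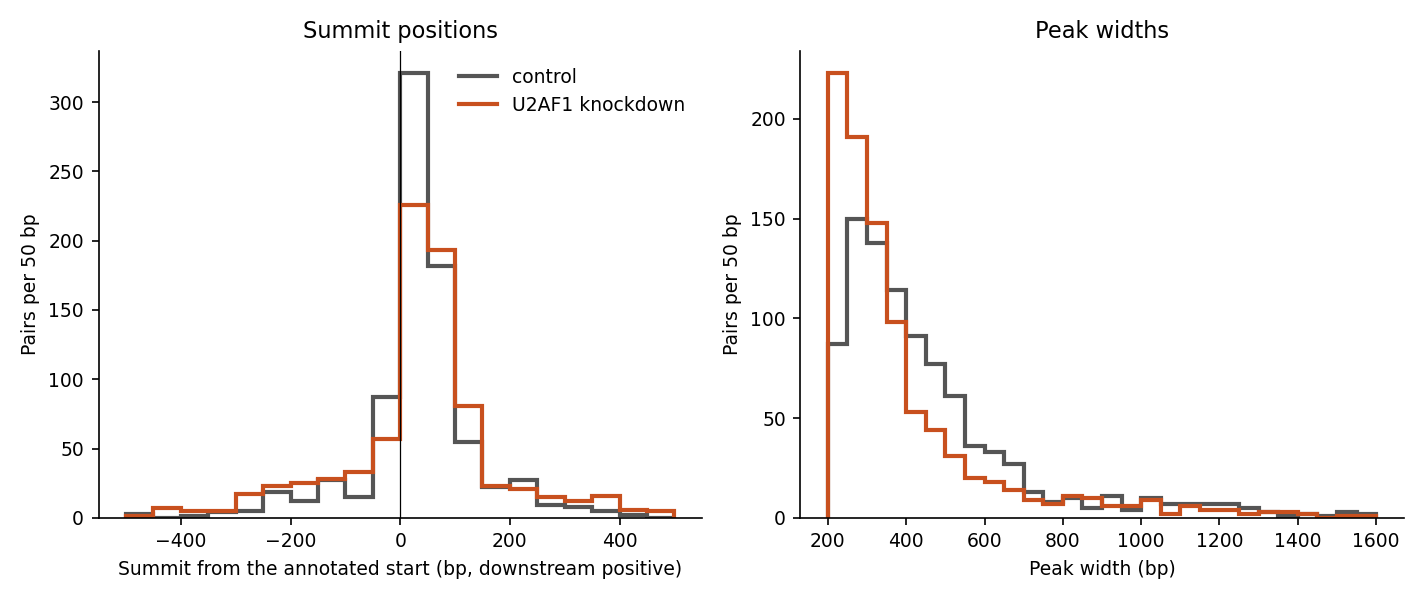
The left panel counts pairs by summit position in bins of 50 bp, measured from the annotated start nearest to the control summit. The right panel counts them by peak width, with the control list in grey and the knockdown list in orange. In the bin from 0 to 50 bp lie 321 control and 226 knockdown summits, and knockdown peaks are narrower, with a median of 316 bp against 389.5 bp.

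Pairs in ribosomal DNA and in telomeric repeats differed in opposite directions. The 28 pairs within 22000 bp of an exact copy of the 5.8S ribosomal RNA lay in ribosomal DNA repeats on chromosome 21, on a sequence assigned to chromosome 22 and on an unplaced one, where RNA polymerase I transcribes the large ribosomal RNAs. All 28 ranked higher under knockdown, by 2.74 to 72.5 points, and all had a read ratio above 1, with a median log2 ratio of 0.42 and an interval above 1 in 16. The pair on chromosome 21 at 8445818 to 8446564 had 212 and 148 reads and a ratio of 1.68 (1.35 to 2.08). Of the 28, 6 lay at an annotated start and 22 away from one. Their local background was lower in 26 of 28, and 27 were wider. The shift of the pair just named was 72.5 points by fold enrichment, 9.36 ordered by −log10 p and 1.34 ordered by reads. Copies of the repeat share reads, so the 28 are not independent.

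In 4 pairs at chromosome ends telomeric repeats filled at least 50% of both peaks. Away from starts they had the 4 largest downward shifts in rank. The pair on chromosome X had 500 reads in the control list and 69 in the knockdown list, a ratio of 0.332 (0.254 to 0.428), and a rank shift of -84.7 points. The local background was 11.95 times the genome background in both lists. The pairs on chromosomes 5, 10 and Y had ratios of 0.395, 0.468 and 0.326 and rank shifts from -84.2 to -75.1 points. Ordered by −log10 p, the shifts on chromosomes 5 and 10 were -13.6 and -15.9 points, and ordered by reads all 4 lay between -9.81 and -2.81 points. All 4 read intervals lay below 1. Telomeric reads map to many chromosome ends, so these 4 pairs share their source as well.

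The other 88 pairs away from starts had a median shift of 0.03 points and a median log2 ratio of 0.03, with 19 intervals above 1 and 5 below. The 19 were 21.6% of them, against 4.93% over all pairs. Their local background was high, with medians of 10.1 and 12.8 times the genome background. Of the 934 pairs, 29 lay on sequences that the annotation does not cover. These count as away from starts only because no start is annotated there. The pair nearest to SP8, on chromosome 7 and away from its start, had a shift of -64.9 points with 34 and 10 reads and a ratio of 0.708 (0.312 to 1.465). Of the 46 pairs higher by reads over the whole set, 16 lay in ribosomal DNA (12 away from starts and 4 at one) and 19 at other places away from starts, while 33 of the 63 lower ones lay at spliceosomal RNA, U3 and U8 genes. The 5S ribosomal RNA genes on chromosome 1, transcribed by RNA polymerase III, had a peak within 1000 bp at 1 of 17 genes in the control list and at 16 in the knockdown list. Of those 25 knockdown peaks 1 belonged to a pair, RNA5S5, with 139 and 63 reads and a ratio of 1.09 (0.797 to 1.48). Over the whole knockdown list 54.0% of peaks belonged to a pair. The 5S genes are nearly identical copies that share reads, so these peaks are not independent.

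Over 728 pairs at protein-coding starts, the rank shift had a rho of 0.00 with GC content from 200 bp before to 200 bp after the start, 0.01 with the observed to expected CpG ratio and -0.03 with GC skew in the first 200 bp. The read ratio had a rho of 0.20 with GC content and 0.11 with gene length. The median GC content was 77.5% at the 9 starts with higher reads, 60.25% at the 20 with lower reads and 73% at all 728. These 728 include pairs that also cover a spliceosomal RNA, U3 or U8 gene, such as the pair of WDR74 and RNU2-2P. Without them 722 pairs remain, of which 14 had lower reads. The control peaks of the 43 spliceosomal RNA, U3 and U8 pairs had a median GC content of 50.9%, against 71.7% over all pairs and 66.1% at the 41 other strong pairs at protein-coding starts, and the part of GC content in their lower reads was not tested. GC skew, an excess of G over C on the RNA strand that goes with R-loops, was positive in 71.2% of these starts. It was positive in 73 of the 104 that ranked higher (70.2%) and 92 of the 125 that ranked lower (73.6%). Genes with a single-exon canonical transcript gave 37 pairs, 5 of them ranked higher and 7 lower, against 99 and 118 of 691 with introns.

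Peaks that found no partner were weaker. Unpaired control peaks had a median of 37 reads against 53 in the paired ones, and unpaired knockdown peaks 17 against 22. Of unpaired knockdown peaks 59.0% (55.5 to 62.4) had the summit within 1000 bp of a start, against 87.8% of the paired ones. Of 12 marker genes chosen for HEK293T cells, 1 had a peak at its start in the control list and 2 in the knockdown list. VIM had one in both lists. None of the markers of blood (4), liver (2), fibroblasts (3) or muscle (2) had one in either list. Most HEK293T markers thus had no peak either, and these counts do not tell the cell types apart.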

How the data were processed

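Peaks were deposited by the authors as 1 list per condition on hg38. The submitters' processing notes name Bowtie2 2.4.5, MACS2 2.2.7.1 and deepTools 3.5.1, with no role given, and read filters are not given in the sources used here. Control peak names end in -1 and knockdown names in no number, so which ChIP replicates each list rests on is not known. Each list held the authors' fold enrichment, a ratio per peak, and the deposited −log10 p and −log10 q. Every sequence name is in the GRCh38 reference used, with 0 peaks past a sequence end.

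Percentile ranks were taken within each whole list, and a shift is the knockdown percentile minus the control percentile. Reads and local background were solved from fold and p by the formulas of MACS2, a Poisson test, within 0.002 of −log10 p. The control ChIP had been scaled by 0.779 and the knockdown ChIP by 1, and the solution was tested on simulated data. One control peak could not be solved. Starts came from GENCODE version 44, which covers 25 sequences. The genes named are the 10 largest shifts in rank each way at starts, the 5 highest pairs, the 3 most extreme in width and summit each way, the extremes of each of the 22 gene lists and the pairs away from starts among the 10 largest shifts. Genes named for their reads, the repeat classes and the comparison of reads were chosen after the data were seen. The members and lists were chosen with earlier results of these data known. Python 3.11 was used with scipy and pysam. Alternatives changed the order, the pairing, the filters and the start rule. One marker gene and one sequence are not reported here.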

Additional observations from a re-analysis of the deposited data

How the results depend on the processing

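No paired analysis was possible because the deposited data give only 1 list for each condition, and no replicate could be left out for that reason. Of the values that answer a comparison, 88 alternatives kept the value within its interval or its count within 1.5 times, and 19 did not. The median rank shift was -4.40 points ordered by −log10 p, 0.21 with percentiles among the pairs only, -1.88 with a −log10 q of at least 5 and 1.85 with the control list limited to the 1730 peaks with the highest −log10 p. That last setting also gave 87 pairs ranked 25 points lower, a median width difference of -69 bp, 23.8% of pairs wider, 16.8% with summits over 100 bp apart and a median log2 ratio of reads of -0.066. With a −log10 q of at least 5, 81 pairs ranked 25 points higher and 13.5% had summits over 100 bp apart, and with pairs limited to summits within 250 bp that share was 14.9%. The share of pairs at a start was 91.0% on chromosomes 1 to 22 and X, where 30 pairs were higher by reads, 77.9% with protein-coding starts and 84.9% with a window of 500 bp. The causes were not tested.

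Ordering by recovered reads was added after seeing the data. It gave 19 pairs ranked 25 points higher and 149 lower, a median shift of -8.999 points and a rho of 0.84. It reversed the shifts at DENR (-1.81 points), EEF2 (-6.39), SNX5 (-4.70), PPA1 (-10.1) and H3C10 (-5.51). Of the 28 named shifts past 25 points, 14 others kept their sign but fell short of 25, among them DUSP28 (11.95), MTCH1 (1.504), ARHGAP4 (23.1), SHCBP1 (-12.6) and those given beside their results, and at NDUFV3 a shift of 24.8 became -45.1. Depth limits single pairs most: the median knockdown summit held 22 reads.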
